A study of Mus musculus with 6 samples.

Results

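The genes described here encode the CD8 coreceptor, the CD3 and zeta chains of the T cell receptor complex, and the first proteins that carry its signal. They were taken by symbol from a list of 10 names, Cd8a, Cd8b1, Cd3d, Cd3e, Cd3g, Cd247, Lck, Zap70, Lat and Cd5, and each matched 1 of the 55487 genes in the deposited tables. The RNA was that of mouse CD8+ T cells on the C57BL/6 background, a standard inbred strain. 3 libraries were of cells given 5 mM itaconate, a dicarboxylate that activated macrophages make from a citric acid cycle intermediate, and 3 were of control cells given NaCl, with 48 h of exposure in both. The labels used here do not give the age of the mice, the tissue the cells came from, how they were purified or stimulated, the NaCl concentration, or whether replicates were separate mice or cultures. P-values therefore rest on library-to-library spread alone, part or all of which may be technical.

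A T cell reads peptides on MHC molecules through an antigen receptor that has no signalling domain of its own. The CD3 gamma, delta and epsilon chains and the zeta chain, encoded by Cd247, carry the tyrosine motifs that are phosphorylated when the receptor is engaged. CD8 binds MHC class I and brings the kinase LCK to the receptor, LCK phosphorylates the motifs, ZAP-70 docks there and phosphorylates the scaffold LAT, and CD5 is a surface receptor that dampens the signal.

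Of the 10 genes, Cd8a and Lat rose in itaconate-treated cells, Cd5 fell, and the other 7 did not pass the test. Cd8a was 1.30-fold higher, Lat 1.17-fold higher, and Cd5 was at 0.773 of its NaCl level. The test was edgeR's quasi-likelihood test, with Benjamini-Hochberg adjustment over the 12350 genes that passed a filter on low counts and a threshold of 0.05. All 10 genes passed the filter. Across all tested genes 12% were called, 6.68% as higher and 5.36% as lower; over the 8270 tested genes averaging 10 CPM or more, the range these genes lie in, it was 14.7%. Of all calls 55.5% were higher with itaconate, and 39.1% were when limma was run on log2(TPM + 1). The median log2 fold change was 0.081 over the 10 genes and 0.006 over all tested genes, and the median size regardless of sign was 0.114 over the 10 genes and 0.13 over all. CPM, the counts-per-million unit, is here a gene's count relative to the total of its library, after scaling between libraries.

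The sequence just upstream of the start of each of the 3 called genes is shown, because these are the members whose RNA level differed. Each is the 250 bases before a RefSeq transcript start on build GRCm38.p6, written 5′ to 3′ on the strand of the gene. They are chr6:71373177-71373426 on the plus strand for Cd8a, chr7:126369569-126369818 on the minus strand for Lat, and chr19:10738975-10739224 on the minus strand for Cd5. Capitals mark matches, on either strand, to AGGAAG, the core bound by many ETS factors, or to CANCTG, the E-box bound by E proteins.
Cd8a: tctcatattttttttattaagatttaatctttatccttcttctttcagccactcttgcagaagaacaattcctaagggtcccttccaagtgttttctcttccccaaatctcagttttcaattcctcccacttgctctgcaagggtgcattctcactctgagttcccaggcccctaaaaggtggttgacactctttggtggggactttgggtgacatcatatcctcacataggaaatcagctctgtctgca
Lat: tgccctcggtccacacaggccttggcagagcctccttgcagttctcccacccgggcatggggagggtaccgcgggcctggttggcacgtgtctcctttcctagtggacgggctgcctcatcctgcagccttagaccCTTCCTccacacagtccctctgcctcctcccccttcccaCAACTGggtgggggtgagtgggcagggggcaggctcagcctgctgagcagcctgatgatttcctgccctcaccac
Cd5: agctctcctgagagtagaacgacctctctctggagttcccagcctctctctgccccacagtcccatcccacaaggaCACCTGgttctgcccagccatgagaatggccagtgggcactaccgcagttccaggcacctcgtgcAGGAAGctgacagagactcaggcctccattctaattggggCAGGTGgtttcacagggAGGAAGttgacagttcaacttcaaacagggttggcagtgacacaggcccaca
The Cd8a window held no match to either motif, the Lat window held 1 of each, and the Cd5 window held 2 of each. TGTGGT, the core bound by RUNX factors, was searched for in the same way and was in none of these 3 windows. RefSeq windows were matched for 9 of the 10 genes, 12 windows in all. AGGAAG was in 9 of the 12, TGTGGT in 2 and CANCTG in 8. Of all 32851 windows of the same length, 29.5% held AGGAAG, 14.0% TGTGGT and 44.8% CANCTG. No match overlapped another in the 3 windows shown, and a match describes the letters only.

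The 6 libraries held 18280202 to 31643410 counts, with 18280202 to 23609545 in itaconate libraries and 20469853 to 31643410 in NaCl libraries. The members had 2099 to 15527 counts each in a library. The fragment length implied by the deposited effective lengths was 232 to 239 bases in itaconate libraries and 229 to 259 bases in NaCl libraries, and NaCl library 1 stood apart at 259 bases. Markers of the labelled cell type were present: Trac and Trbc2, the receptor constant regions, averaged 228 and 359 CPM in itaconate libraries and 224 and 372 CPM in NaCl libraries, and neither passed the test (adjusted p = 0.794 and 0.583 by edgeR). The 2 CD4 T cell markers summed to 7.44 to 10.8 CPM in itaconate libraries and 5.64 to 9.49 CPM in NaCl libraries. The 5 B cell markers summed to 9.996 to 21.5 CPM with itaconate and 11.9 to 18.5 CPM with NaCl. The 9 myeloid and dendritic markers summed to 0.777 to 3.90 CPM with itaconate and 0.928 to 2.16 CPM with NaCl, with Siglech at 0 throughout. The 4 stromal and epithelial markers summed to 24.9 to 27.3 CPM with itaconate and 27.0 to 30.4 CPM with NaCl. Pecam1 made up most of that sum, averaging 21.2 CPM with itaconate and 25.1 CPM with NaCl. Epcam averaged 4.67 CPM with itaconate and 3.18 CPM with NaCl, and Col1a1 and Col1a2 averaged under 1 CPM in both groups. The 3 red cell markers summed to 0.172 to 3.995 CPM with itaconate and 0.780 to 1.30 CPM with NaCl. None of the CD4 T cell, B cell, myeloid, stromal or red cell markers passed the test, though not all were tested. All of the CD4 and B cell markers passed the filter on low counts and were tested. Of the others, 1 of 9 myeloid and dendritic, 2 of 3 red cell and 2 of 4 stromal and epithelial markers were. Of the 5 NK cell markers, which summed to 110.2 to 139 CPM in itaconate libraries and 96.7 to 109 CPM in NaCl libraries, 4 averaged under 1 CPM in both groups; Eomes, a factor that CD8+ T cells also express, averaged 123 CPM with itaconate and 103 CPM with NaCl and rose (adjusted p = 0.0477 by edgeR), and its part in the results was not tested.

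**Figure D1:**
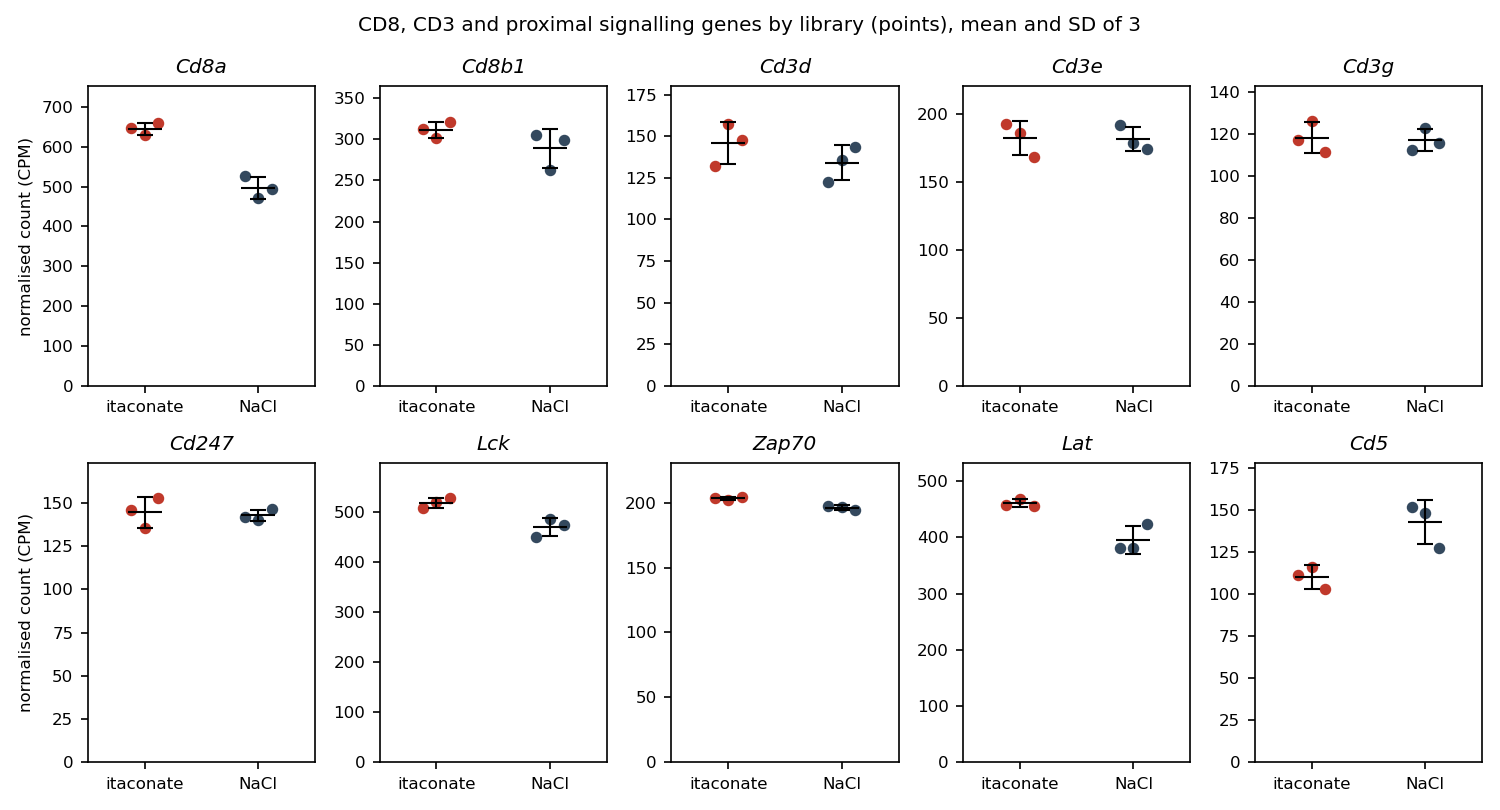
Normalised counts (CPM, linear axes from 0) of the 10 genes in 3 itaconate libraries (left of each panel) and 3 NaCl libraries (right); points are libraries, bars the mean and SD. On this scale the groups do not overlap for Cd8a, Lck, Zap70 and Lat, which are higher with itaconate, and for Cd5, which is lower.

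Cd8a (ENSMUSG00000053977, GRCm38 chromosome 6, 71373427 to 71379173, plus strand) encodes the alpha chain, which forms CD8 homodimers or pairs with the beta chain. It had 646, 629.9 and 659 CPM in the 3 itaconate libraries, against 526, 472 and 493 CPM in the 3 NaCl libraries. Every itaconate library lay above every NaCl library. The means were 645 ± 14.4 CPM with itaconate and 497 ± 27.4 CPM with NaCl (SD, n = 3 each), and the log2 fold change was 0.38 ± 0.049 (SE, adjusted p = 0.000297 by edgeR). These are bulk libraries, so a change in the cells that express a gene and a change in RNA per cell cannot be told apart.

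Cd8b1 (ENSMUSG00000053044, chromosome 6, 71322788 to 71337494, plus strand) encodes the beta chain, found on cells as the alpha-beta heterodimer, and lies 35932 bases from Cd8a. It had 313, 301 and 321 CPM in itaconate libraries and 305, 262 and 299.7 CPM in NaCl libraries. The groups overlapped, since NaCl library 1 lay above itaconate library 2. The log2 fold change was 0.11 ± 0.057 (SE, adjusted p = 0.245 by edgeR, n = 3 each). The genes on either side of the pair did not pass the test either: Krcc1 averaged 28.7 CPM with itaconate and 24.5 CPM with NaCl (log2 fold change 0.23 ± 0.074 SE, adjusted p = 0.0565 by edgeR), and Rmnd5a averaged 107 CPM with itaconate and 108 CPM with NaCl.

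The balance of the 2 chains is read from TPM, the transcripts-per-million unit, which divides by transcript length and so allows levels of different genes to be compared. The Cd8b1 to Cd8a TPM ratio was 0.953, 0.938 and 0.960 in itaconate libraries, against 1.19, 1.101 and 1.21 in NaCl libraries. The groups did not overlap, and beta chain RNA was below alpha chain RNA in each itaconate library and above it in each NaCl library. On the log2 scale the ratio of Cd8a to Cd8b1 was 0.074 ± 0.017 with itaconate and -0.22 ± 0.073 with NaCl (SD, n = 3 each), a difference of 0.30. A two-sided exact permutation test of that difference gave p = 0.1, the smallest that 3 against 3 libraries allow. Groups without overlap always give that value, so the test adds nothing to the lack of overlap. It was not among the planned tests.

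The deposited tables also give, for each gene, a length averaged over its transcripts and weighted by their estimated abundance, which shifts when the estimated mix of transcripts shifts. For Cd8a this length was 2689, 2684 and 2692 bases in itaconate libraries and 2766, 2715 and 2724 bases in NaCl libraries. It was shorter in every itaconate library. GENCODE M21 lists 3 Cd8a transcripts, 2 of them protein coding with 3128 bases in 5 exons and 2975 bases in 4 exons, and a retained-intron transcript of 1950 bases. Of the 9 members with more than 1 listed transcript, Zap70 and Cd5 were the others whose lengths did not overlap between the groups, against 9.84% of the 10645 tested genes with more than 1 transcript. Zap70 had 2213, 2194 and 2202 bases with itaconate and 2225, 2229 and 2240.4 bases with NaCl, so it was shorter. Cd5 had 2057, 2081 and 2078 bases with itaconate and 2020.03, 2031 and 2046 bases with NaCl, so it was longer. These lengths are estimates from reads shared between transcripts, and were not tested. NaCl library 1, whose fragment length stood apart, had the longest Cd8a value and the shortest Cd5 value; the groups did not overlap for either gene without it.

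**Figure D2:**
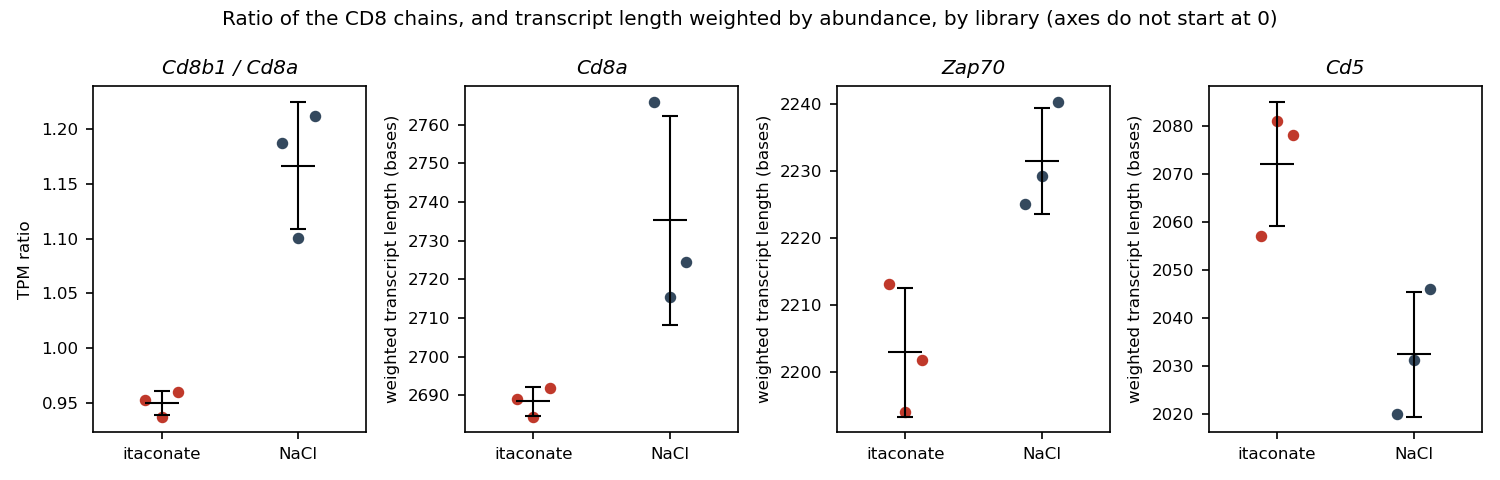
The Cd8b1 to Cd8a TPM ratio and the abundance-weighted transcript length (bases) of Cd8a, Zap70 and Cd5 in 3 itaconate libraries (left) and 3 NaCl libraries (right); points are libraries, bars the mean and SD, and the axes do not start at 0. The ratio is 0.938 to 0.960 with itaconate and 1.101 to 1.21 with NaCl, and the groups do not overlap in any of the 4 panels.

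None of the 4 genes for the CD3 and zeta chains passed the test, and the itaconate and NaCl libraries overlapped for each of them. Cd3e (ENSMUSG00000032093, chromosome 9, 44998740 to 45009627, minus strand), whose product pairs with both the gamma and the delta chain, had 192, 186 and 168 CPM in itaconate libraries and 191, 179 and 174 CPM in NaCl libraries. Its log2 fold change was 0.0047 ± 0.057 (SE, adjusted p = 0.974 by edgeR). Cd3g (ENSMUSG00000002033, chromosome 9, 44969572 to 44980431, minus strand), the gamma chain, had 117, 126 and 111 CPM with itaconate and 112, 123 and 116 CPM with NaCl. For Cd3e and Cd3g the 2 groups covered nearly the same range of values.

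Cd3d (ENSMUSG00000032094, chromosome 9, 44981786 to 44987339, plus strand), the delta chain, had 132, 157 and 148 CPM with itaconate and 123, 136 and 144 CPM with NaCl. Its log2 fold change was 0.12 ± 0.071 (SE, adjusted p = 0.323 by edgeR). Cd247 (ENSMUSG00000005763, chromosome 1, 165788681 to 165877277, plus strand), the zeta chain, had 146, 135 and 153 CPM with itaconate and 142, 140.1 and 146 CPM with NaCl. The itaconate libraries of Cd247 spread on both sides of the NaCl ones. The log2 fold change of Cd247 was 0.017 ± 0.053 and that of Cd3g was 0.015 ± 0.057 (SE, adjusted p = 0.879 and 0.904 by edgeR). The log2 fold changes of Cd3e, Cd3g and Cd247 turned negative in the fits of TPM and without some single libraries, and that of Cd3e also with DESeq2 size factors and a length offset, so no direction is given for them.

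The 3 CD3 genes stand together on chromosome 9, with 1354 bases between Cd3g and Cd3d and 11400 bases between Cd3d and Cd3e. Of the coding genes near the cluster, Ube4a averaged 56.7 CPM with itaconate and 59.6 CPM with NaCl (adjusted p = 0.575), and Kmt2a averaged 68.9 CPM with itaconate and 81.9 CPM with NaCl (adjusted p = 0.385, both by edgeR). Mpzl2, on the other side, fell to 0.488 CPM with itaconate, against 1.60 CPM with NaCl (log2 fold change -1.67 ± 0.49 SE, adjusted p = 0.0431 by edgeR, n = 3 each). Its level was low in both groups, and its call was not checked under other settings. Mpzl2 was named for its position beside Cd3e, after its values were seen.

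TPM ratios of the chains to Cd3e overlapped between the groups for all 3 partners. Cd3d to Cd3e was 0.633, 0.750 and 0.802 with itaconate, against 0.579, 0.698 and 0.752 with NaCl. Cd3g to Cd3e was 0.975, 1.100 and 1.084 with itaconate, against 0.925, 1.115 and 1.076 with NaCl. In both ratios the libraries of each group varied among themselves by more than the group means differed. The Cd3d to Cd3e ratio increased from library 1 to library 3 in both groups. Each itaconate value of it was above the NaCl value of the same number, which was not so for Cd3g to Cd3e. The numbers were not taken as pairs, and this order was not tested. Cd247 to Cd3e was 0.683, 0.648 and 0.813 with itaconate, against 0.633, 0.708 and 0.748 with NaCl. The span of Cd247, introns included, overlaps that of Pou2f1 on the opposite strand over 12124 bases, and Pou2f1 had 31.9 to 39.5 CPM. Whether counting used strand is not given in the sources used here, and overlap of exons was not examined. Reads from any exons that do overlap may be shared. The other genes that overlap members had at most 1.07 CPM in any library.

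Lck (ENSMUSG00000000409, chromosome 4, 129548344 to 129573641, minus strand), the Src-family kinase that CD8 holds at its cytoplasmic tail, had 507, 520.1 and 527 CPM in itaconate libraries. In NaCl libraries it had 451, 486 and 475 CPM. Every itaconate library lay above every NaCl library, but the difference did not pass the test: the means were 518 ± 10.1 CPM with itaconate and 470.5 ± 17.8 CPM with NaCl (SD, n = 3 each), and the log2 fold change was 0.14 ± 0.046 (SE, adjusted p = 0.0625 by edgeR). Lck passed in 2 of 15 alternatives, among them upper-quartile scaling (adjusted p = 0.0396 by edgeR). It did not pass with any 1 library left out (adjusted p = 0.0872 to 0.207 by edgeR). Nor did it in the fits of TPM (adjusted p = 0.387 to 0.537 by limma).

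Zap70 (ENSMUSG00000026117, chromosome 1, 36761798 to 36782818, plus strand), the kinase that docks on phosphorylated CD3 and zeta chains, had 203, 202 and 205 CPM with itaconate and 197, 197 and 194 CPM with NaCl. The groups did not overlap, yet they lay close together: the log2 fold change was 0.053 ± 0.043 (SE, adjusted p = 0.473 by edgeR, n = 3 each). The Lck to Zap70 TPM ratio was 2.76, 2.81 and 2.802 with itaconate, against 2.54, 2.73 and 2.68 with NaCl. This ratio was higher in every itaconate library, and it was not tested.

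Lat (ENSMUSG00000030742, chromosome 7, 126363824 to 126369570, minus strand) encodes the membrane scaffold on which phospholipase C and other effectors assemble. It had 459, 469 and 455 CPM in itaconate libraries, against 381, 382 and 424 CPM in NaCl libraries. The groups did not overlap, and NaCl library 3 lay nearest to the itaconate libraries. The means were 461 ± 7.24 CPM with itaconate and 395 ± 24.5 CPM with NaCl (SD, n = 3 each), with a log2 fold change of 0.22 ± 0.050 (SE, adjusted p = 0.0111 by edgeR). Without NaCl library 2 the log2 fold change was 0.19 and the call was lost (adjusted p = 0.0844 by edgeR), and it was also lost in fits of TPM (adjusted p = 0.137 to 0.245 by limma).

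Cd5 (ENSMUSG00000024669, chromosome 19, 10717116 to 10739002, minus strand), whose surface level on T cells is known to follow the strength of receptor signalling, was the member that fell. It had 112, 116 and 103 CPM in itaconate libraries, against 152, 149 and 128 CPM in NaCl libraries. The groups did not overlap, and library 3 was the lowest in both. The means were 110.3 ± 6.91 CPM with itaconate and 143 ± 13.1 CPM with NaCl (SD, n = 3 each), and the log2 fold change was -0.37 ± 0.069 (SE, adjusted p = 0.00446 by edgeR).

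The next coding gene after Cd5 on chromosome 19 is Cd6, 50338 bases away on the same strand, which encodes a related scavenger-family receptor of T cells. Cd6 had 197, 197 and 193 CPM in itaconate libraries, against 259, 265 and 232 CPM in NaCl libraries. It fell without overlap between the groups (log2 fold change -0.36 ± 0.053 SE, adjusted p = 0.000603 by edgeR, n = 3 each). Vps37c, on the other side of Cd5, averaged 17.9 CPM with itaconate and 18.9 CPM with NaCl (adjusted p = 0.655 by edgeR).

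In all, 5 of the 10 members had CPM values that did not overlap between the groups, 4 higher with itaconate and 1 lower; over all tested genes the share without overlap was 31.2%, 16.8% as higher and 14.4% as lower. In TPM the groups of Lck and Zap70 overlapped, which leaves Cd8a and Lat as higher and Cd5 as lower; over all tested genes 26.4% did not overlap in TPM, 8.83% as higher and 17.6% as lower. The members together took 0.283, 0.280 and 0.281% of the counts in itaconate libraries, against 0.262, 0.255 and 0.258% in NaCl libraries. Every itaconate library was above every NaCl library in that share. Abundant genes weigh most in it: Cd8a averaged 645 CPM with itaconate and 497 CPM with NaCl. Cd3e averaged 182 CPM with itaconate and 181 CPM with NaCl, and Cd5 fell.

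**Figure D3:**
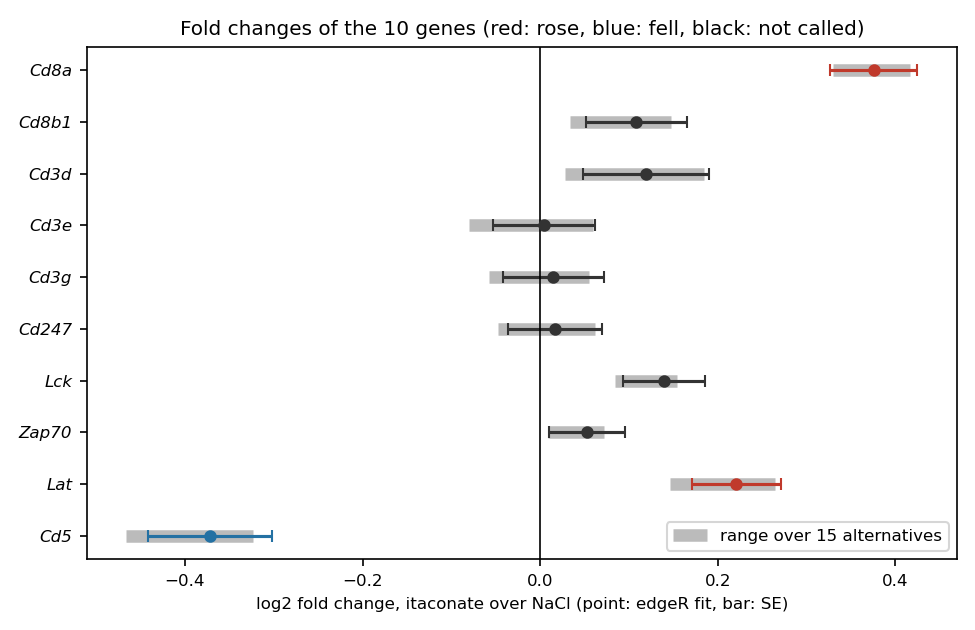
Log2 fold change, itaconate over NaCl, of the 10 genes (x axis); points are the edgeR estimates on 3 against 3 libraries, thin bars the SE, and grey bands the range over 15 alternative settings. Cd8a and Lat lie right of 0 and Cd5 left of 0 under every setting. Cd8b1, Cd3d, Lck and Zap70, which were not called, also lie right of 0 under every setting. The bands of Cd3e, Cd3g and Cd247 cross 0.

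Compared per length, Lat was the most abundant of the 10 in both groups, with 594 ± 20.1 TPM in itaconate libraries and 536 ± 12.4 TPM in NaCl libraries (SD, n = 3 each). In itaconate libraries Lck followed at 345 ± 5.92 TPM, then Cd8a at 315 ± 13.0 and Cd8b1 at 299 ± 15.4 TPM, the last pair overlapping. In NaCl libraries Lck at 326 ± 14.3 TPM overlapped Cd8b1 at 291 ± 25.0 TPM, which overlapped Cd8a at 249 ± 14.7 TPM. Cd8a thus stood above Cd8b1 in the itaconate order and below it in the NaCl order, as their ratio shows.

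Below these, Cd3g and Cd3e overlapped, at 186 ± 9.56 and 177 ± 15.4 TPM with itaconate and 194 ± 9.33 and 188 ± 19.8 TPM with NaCl. Cd3d, Cd247 and Zap70 lay between 124 and 128 TPM on average with itaconate and between 123 and 129.9 TPM with NaCl, and their libraries overlapped. Cd5 was last in both, at 72.0 ± 4.90 TPM with itaconate and 99.8 ± 12.7 TPM with NaCl.

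**Figure D4:**
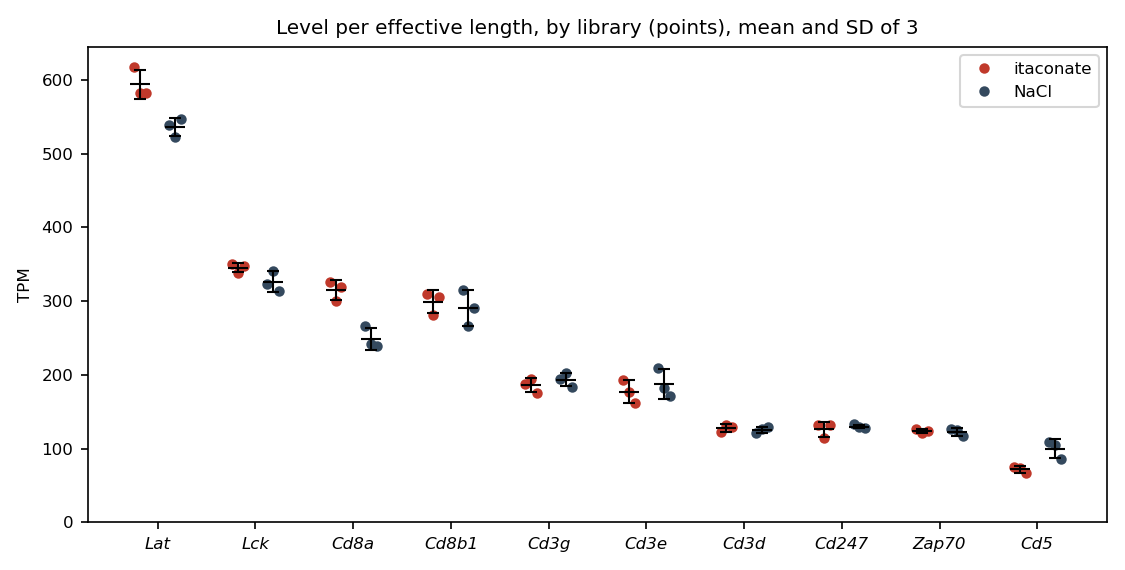
Level per length (TPM, linear axis from 0) of the 10 genes in 3 itaconate libraries (left of each pair) and 3 NaCl libraries (right); points are libraries, bars the mean and SD. Lat is highest and Cd5 lowest in both groups, and the pair of Cd8a and Cd8b1 changes places.

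Of 58 other genes of proximal receptor signalling, all of which passed the filter, 17 rose, 8 fell and 33 did not pass the test. That is 43.1% called, beside the 12% over all tested genes and 14.7% over those averaging 10 CPM or more. The median log2 fold change was 0.075, beside 0.006 over all tested genes. The median size regardless of sign was 0.155, beside 0.13 over all tested genes. Of the 8 phosphatases 4 rose and 1 fell, and of the 8 kinases 2 rose and none fell. The count of called genes in this list depended on the fit: 7 rose and 3 fell with an offset for effective length, and 4 rose and 3 fell by limma on log2(TPM + 1). It was 9 and 5 without NaCl library 2 and 10 and 5 without itaconate library 3, and 5 fell without itaconate library 2.

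Among the genes that rose, Sla2 and Ptprj had the largest fold changes of the list. Sla2, an adaptor that promotes loss of receptors from the surface, had 45.2, 42.8 and 43.7 CPM in itaconate libraries, against 24.9, 25.9 and 25.3 CPM in NaCl libraries. Its log2 fold change was 0.79 ± 0.065 (SE, adjusted p = 5.91e-06 by edgeR, n = 3 each), and the groups lay far apart relative to their spread. Ptprj, the receptor phosphatase CD148, averaged 28.1 ± 1.18 CPM with itaconate and 16.1 ± 1.27 CPM with NaCl (SD, n = 3 each; adjusted p = 6.05e-05 by edgeR).

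Sh2d2a, which encodes an adaptor that binds LCK, averaged 357 ± 14.1 CPM with itaconate and 269 ± 10.3 CPM with NaCl (SD, n = 3 each; adjusted p = 0.000136 by edgeR). Ubash3b, a phosphatase that restrains ZAP-70, averaged 34.4 ± 1.38 CPM with itaconate and 25.0 ± 1.15 CPM with NaCl (adjusted p = 0.00102). Txk, a Tec-family kinase, averaged 29.3 ± 3.25 CPM with itaconate and 21.2 ± 1.31 CPM with NaCl (adjusted p = 0.00431). The log2 fold changes of these 3 genes were 0.41 ± 0.048, 0.46 ± 0.072 and 0.47 ± 0.092 (SE). Ubash3b and Txk lost their calls in the fits of TPM (adjusted p = 0.102 to 0.219 for Ubash3b and 0.0835 to 0.197 for Txk, by limma). Ptprj and Sh2d2a lost theirs only in the TPM fit of all genes above 0 (adjusted p = 0.0918 and 0.0535 by limma). Csk, the kinase that holds LCK inactive, also rose (adjusted p = 0.00666 by edgeR). It averaged 421 ± 5.94 CPM with itaconate and 363 ± 11.2 CPM with NaCl. In TPM its groups overlapped, at 283, 254 and 242 TPM with itaconate and 251, 227 and 218 TPM with NaCl. Csk was named after its values were seen, for its known action on LCK, and its call was not checked under other settings.

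Besides Cd6, the genes that fell included Sla, the paralogue of Sla2, which averaged 75.0 ± 3.17 CPM with itaconate and 98.9 ± 6.32 CPM with NaCl (SD, n = 3 each; adjusted p = 0.000809 by edgeR). The 2 paralogues thus passed the test in opposite directions. Ptprc, which encodes the phosphatase CD45 that removes the inhibitory phosphate from LCK, averaged 745 ± 26.7 CPM with itaconate and 916 ± 75.1 CPM with NaCl (adjusted p = 0.00406). Malt1, a paracaspase that acts on the path to NF-kappaB, averaged 115 ± 5.13 CPM with itaconate and 138 ± 7.87 CPM with NaCl (adjusted p = 0.00604). Grap, a GRB2-related adaptor, averaged 71.3 ± 5.13 CPM with itaconate and 87.6 ± 6.15 CPM with NaCl (adjusted p = 0.0107). The log2 fold changes of Sla, Ptprc, Malt1 and Grap were -0.40 ± 0.060, -0.30 ± 0.057, -0.27 ± 0.055 and -0.30 ± 0.067 (SE). Cd6 and Sla lost their calls only in the TPM fit of all genes above 0 (adjusted p = 0.105 and 0.0612 by limma). Ptprc lost its call in the fits of TPM (adjusted p = 0.0603 to 0.178 by limma). Malt1 lost it there (adjusted p = 0.1575 to 0.336 by limma) and with the offset for effective length (adjusted p = 0.108 by edgeR). Grap lost its call with that offset (adjusted p = 0.0531), in the TPM fit of all genes above 0 (adjusted p = 0.106 by limma), without NaCl library 2 (adjusted p = 0.062) and without itaconate library 3 (adjusted p = 0.0637 by edgeR).

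**Figure D5:**
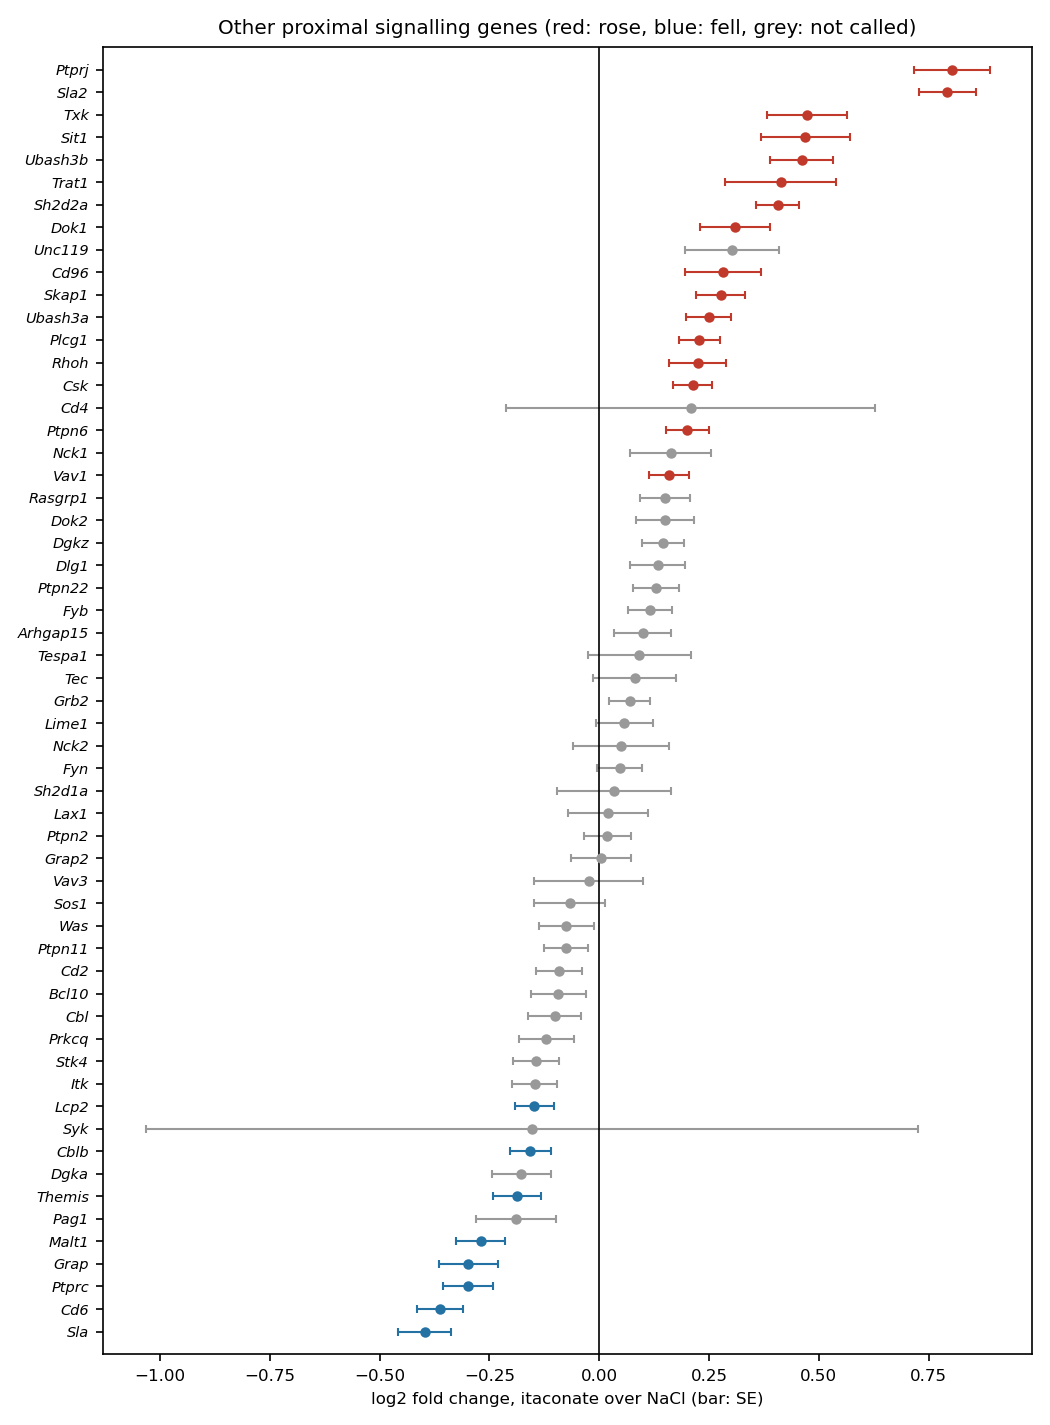
Log2 fold change, itaconate over NaCl, of the other proximal signalling genes that are reported (x axis), ordered by value; points are edgeR estimates on 3 against 3 libraries and bars the SE. Ptprj (0.80) and Sla2 (0.79) stand at the top and Sla (-0.40) and Cd6 (-0.36) at the bottom.

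Of 19 genes for transcription and chromatin factors known to act on the Cd8 or Cd3 loci or on T cell identity, 0 passed edgeR's test in either direction, 0 passed by DESeq2 or by limma on TPM, and 2 had an unadjusted p under 0.05. Over all tested genes edgeR called 12%, and 14.7% of those averaging 10 CPM or more. An unadjusted p under 0.05 was found for 3271 of the 12350 tested genes. The median log2 fold change of the 19 was -0.033. The smallest adjusted p was that of Ets1, an ETS factor, which averaged 396 ± 13.8 CPM with itaconate and 360 ± 13.6 CPM with NaCl (SD, n = 3 each; log2 fold change 0.14 ± 0.047 SE, adjusted p = 0.0739 by edgeR). Runx3, which acts on the Cd8 locus in CD8+ T cells, averaged 134 ± 10.2 CPM with itaconate and 134 ± 3.29 CPM with NaCl (log2 fold change -0.0022 ± 0.057 SE, adjusted p = 0.988 by edgeR). Without NaCl library 1, Ets1 alone of the 19 was called higher (adjusted p = 0.0493 by edgeR).

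The genes whose pattern over the 6 libraries was most like that of Cd8a, the member with the smallest adjusted p, were Socs5, Tbc1d9b and Rhoq. The measure was the root mean square difference of log2 CPM, each gene centred on its own mean, over the other 8269 genes averaging 10 CPM or more. It was 0.033 for Socs5, 0.036 for Tbc1d9b and 0.039 for Rhoq. Rhoq averaged 39.0 ± 1.24 CPM with itaconate and 29.1 ± 1.08 CPM with NaCl (SD, n = 3 each).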

How the data were processed

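RNA was measured in 6 libraries, 3 of itaconate-treated and 3 of NaCl-treated cells. Each deposited table lists expected counts (RSEM-style estimates that need not be whole), TPM and lengths per gene, as computed by the authors, per the file headers. Bowtie 0.12.2 and the builds mm8 and mm10 are listed, without roles, per the submitters' processing notes; annotation and strand setting were not given in the sources used here. Of the gene identifiers, 99.83% are in GENCODE M21, the source of positions and transcripts printed here.

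Expected counts were rounded to whole numbers, genes were filtered (minimum count 10, minimum total 15), and libraries were scaled by TMM and tested with edgeR 4.0.16 in R 4.3.3, all 6 libraries in 1 fit without a replicate block. CPM uses the scaled library sizes. TPM was used as deposited, for levels between genes and, as log2(TPM + 1) in limma 3.58.1, as an alternative; DESeq2 1.42.0 was another. Among the members, Cd247 alone had counts more than 0.001 from a whole number. Library pairs differed by more than sampling noise (chi-square per gene 4.93 to 16.5). Scripts were tested on simulated data.

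The members, the gene lists and their tests were chosen with earlier results of these data known. All members are named, and from each list up to 5 genes called higher and 5 called lower, by smallest adjusted p; likeness was limited to the 3 nearest genes. Alternatives were other scalings, filters, tools, pseudocounts, an effective-length offset, a replicate block and leaving out each library; overlap of the groups in TPM was added after seeing the data. With 2099 counts, the fewest of a member in a library, counting error is 2.18%; library numbers limit precision more. 1 gene of the wider signalling list is counted but not reported here or plotted.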

Additional observations from a re-analysis of the deposited data

How the results depend on the processing

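Under 15 alternatives Cd8a and Cd5 kept their calls in 14 and Lat in 11; the exception for Cd8a and Cd5 was limma on log2(TPM + 1) over all genes above 0 (adjusted p = 0.0882 and 0.157). Sla2 kept its call in all 15. Fits of TPM made far fewer calls: with limma on log2(TPM + 1), log2(TPM + 0.1) and all genes above 0, the calls over all genes were 133, 141 and 30 higher and 207, 215 and 29 lower, against 825 and 662. Of the calls, 55.5% were higher in the edgeR fit, 39.1% with log2(TPM + 1) and 62.3% with upper-quartile factors. In the same order the TPM fits called 1, 1 and 0 members higher, 4, 4 and 1 of the 58 signalling genes higher and 3, 3 and 0 lower, and with all genes above 0 no member (0) was lower. An offset for effective length gave 325 higher and 242 lower over all genes, and 7 higher and 3 lower of the 58. In TPM 2 members, not 4, were higher without overlap between the groups. The median log2 fold change in the TPM fits was 0.019 for the members and 0.002 for the 58, against 0.081 and 0.075. For the regulators it was -0.116 to -0.112, against -0.033. Over all genes fitted it was -0.057 to -0.019, against 0.006. Upper-quartile factors gave 5 lower of the 58, and no filter on low counts 1993 calls over all genes. Leaving out 1 library at a time gave 407 to 707 higher and 319 to 693 lower over all genes, with 726 calls without NaCl library 2, 835 without itaconate library 3 and 896 without itaconate library 2. It gave 1 to 2 members higher, 9 to 15 of the 58 higher and 5 to 11 lower, and 0 to 1 regulators higher.

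Log2 fold changes of Cd3e, Cd3g and Cd247, none of them called, changed sign. Cd3e was -0.0030 with DESeq2 size factors and in DESeq2's test, -0.019 with the length offset and -0.080 in the 3 TPM fits; Cd3g was -0.058 and Cd247 -0.047 in those. Leaving out 1 library gave -0.037 to 0.060 for Cd3e, -0.034 to 0.055 for Cd3g and -0.025 to 0.062 for Cd247. The causes of these shifts were not tested.

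Same-numbered libraries deviated together only weakly (r = 0.113, 0.0308 and -0.0135 across genes), and not every library correlated best with its own number, so the numbers were not taken as pairs. A replicate block gave 1315 higher and 1104 lower over all genes, against 825 and 662 without it. It called 4 of the 19 regulators higher and called Lck (adjusted p = 0.0188 by edgeR). The SE was smaller with the block for every member, as for Cd3d (0.046, against 0.071), Cd5 (0.046, against 0.069) and Cd8b1 (0.043, against 0.057). Cd3d and Cd8b1 were still not called (adjusted p = 0.0772 and 0.0729 by edgeR). The correlations are across all genes, and shared deviation of same-numbered libraries was not tested for the members alone. With 3 libraries a group, a difference of the size of Lck's passed under some settings and not under others.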
